A study of Mus musculus with 4 samples.

Results

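The genes described are 10 of the 16673 genes in a table of normalized read counts from lineage-negative (Lin–) bone marrow cells. They are 5 subunits of the transcription factor AP-1 (Fos, Fosb, Jun, Junb and Jund) and 5 other immediate early genes (Egr1, Nr4a1, Zfp36, Ier2 and Dusp1). Each was found by its symbol, and all 10 passed the filter of a mean of at least 10 normalized counts. The genes were chosen on their lower levels in the comparison reported here, which were already known. Their differences between the groups are therefore given as a description, without a test, and support nothing further.

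The libraries labelled cKO (here cKO libraries) came from 2 mice of genotype Tie2+/cre; Tet3F/F, and those labelled control (control libraries) from 2 mice of genotype Tet3F/F. All 4 mice were 2 months old, and both groups carried the floxed Tet3 alleles. Tie2 (Tek) drives Cre in endothelial cells and, through them, in blood cells from early development on. TET3 is an enzyme that oxidises 5-methylcytosine in DNA. The Tet3F/F mice carried no Cre, so the presence of Cre and the deletion of Tet3 cannot be told apart. Lin– cells are what is left of bone marrow after cells with markers of mature blood lineages are removed, a mixture rich in progenitors.

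Immediate early genes are transcribed within minutes of a stimulus, such as a growth factor, a cytokine or stress, without new protein synthesis. MAP kinases act on the factors that are already bound at their promoters, among them SRF with its ELK partners at serum response elements and CREB at cAMP response elements (CRE). AP-1 is a dimer of leucine zipper proteins: FOS proteins pair with JUN proteins, and JUN proteins can also pair with each other. Many of the transcripts are short-lived, in several cases through AU-rich elements in their 3′ ends, which the ZFP36 protein binds. Handling and dissociation of tissue are known to raise these same genes before RNA is extracted.

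Immediate early genes are known to be induced through elements close to their starts, so upstream sequences are shown here. RefSeq (build GRCm38.p6) gave a transcription start for 8 of the 10 genes, all but Egr1 and Ier2. The 250 bases before each start were searched on both strands. The motifs were the full CRE TGACGTCA and the CRE core TGACG, which the full CRE contains. The others were the AP-1 site TGAGTCA or TGACTCA, the EGR site GCGGGGGCG or GCGTGGGCG, the TATA box TATAAA and the CArG box, the core of the serum response element. Windows of 4 genes that carry different elements follow, 5′ to 3′ on the strand of the gene, with every motif found in capitals.
Fos, chr12:85473640-85473889, plus strand: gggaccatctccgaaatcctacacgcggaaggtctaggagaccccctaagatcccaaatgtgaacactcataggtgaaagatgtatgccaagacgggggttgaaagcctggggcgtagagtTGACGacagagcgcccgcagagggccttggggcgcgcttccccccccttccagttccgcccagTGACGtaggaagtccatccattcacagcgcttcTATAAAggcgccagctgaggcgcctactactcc
Fosb, chr7:19310046-19310295, minus strand: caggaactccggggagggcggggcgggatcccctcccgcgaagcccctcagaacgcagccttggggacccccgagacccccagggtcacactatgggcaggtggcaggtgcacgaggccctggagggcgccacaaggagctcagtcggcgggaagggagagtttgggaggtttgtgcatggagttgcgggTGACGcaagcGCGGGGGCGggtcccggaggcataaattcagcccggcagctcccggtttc
Zfp36, chr7:28379229-28379478, minus strand: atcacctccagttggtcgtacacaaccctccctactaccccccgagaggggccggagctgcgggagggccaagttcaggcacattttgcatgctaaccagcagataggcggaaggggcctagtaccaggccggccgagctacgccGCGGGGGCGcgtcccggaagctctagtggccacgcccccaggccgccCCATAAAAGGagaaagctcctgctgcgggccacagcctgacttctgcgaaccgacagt
Dusp1, chr17:26508473-26508722, minus strand: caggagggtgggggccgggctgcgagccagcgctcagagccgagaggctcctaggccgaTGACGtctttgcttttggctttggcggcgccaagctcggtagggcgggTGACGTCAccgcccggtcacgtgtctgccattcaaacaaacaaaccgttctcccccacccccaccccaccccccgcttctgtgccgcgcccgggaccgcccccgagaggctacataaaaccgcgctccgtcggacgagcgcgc

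Among the AP-1 subunits, the Fos window held the CRE core at -66 to -62 and again at -129 to -125 from the start, and a TATA box at -33 to -28. Fosb held the CRE core at -60 to -56 and an EGR site at -50 to -42, and Junb the CRE core at -106 to -102. None of the motifs was found in the window described for Jun or in that for Jund, and any other starts of these genes are not described. Among the other immediate early genes, Dusp1 held the full CRE at -143 to -136. Zfp36 held an EGR site at -105 to -97 and a CArG box at -58 to -49, and Nr4a1 held an EGR site at -60 to -52 and the CRE core at 4 places. The CRE core was thus present in 5 of the 8 genes, against 19.8% of 27025 genes in the same table, and the EGR site in 3 of 8, against 3.47%. The 27025 genes were not matched to the 8 for base composition or for expression in these cells, so no enrichment is read from these shares. The full CRE was present in 1.77% of all genes, the CArG box in 1.62%, the TATA box in 14.3% and the AP-1 site in 5.16%, the last in none of the 8. A match in such a window is a description of the sequence and not a measured binding site. The absence of a motif concerns these 250 bases alone, since sequence farther upstream was not searched. Variants of the motifs that differ from the letters searched were not counted either. The windows follow RefSeq starts, so a window need not belong to the GENCODE transcript used for the 3′ ends and lengths below. Egr1 and Ier2 had no window.

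The 3′ ends were read from GENCODE M21 (build GRCm38), from the longest coding transcript of each gene, because the stability of these transcripts is known to depend on them. The heptamer TATTTAT, written in DNA letters, holds the core to which ZFP36 is known to bind. It was found in 6 of the 10 genes, against 27.1% of 6114 genes whose 3′ untranslated regions were as long as those of the 10 (485 to 2145 bases). Zfp36 and Dusp1 each had 3 copies and Fos had 2, while Fosb, Jun and Jund had 1 each. Junb, Egr1, Nr4a1 and Ier2 had none. Only 7.23% of the genes in that range of lengths had 2 or more copies. Sites from the genes with several copies follow with 7 bases on each side, the heptamer in capitals.
Fos, chr12:85477107-85477127, plus strand: ttcaattTATTTATtaagatg
Fos, chr12:85477131-85477151, plus strand: tctcagaTATTTATattttta
Zfp36, chr7:28376955-28376975, minus strand: acgacttTATTTATtgtatta
Dusp1, chr17:26506163-26506183, minus strand: tggtcctTATTTATttaacac
Dusp1, chr17:26505874-26505894, minus strand: ttaccttTATTTATttttgtg

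Before the levels, the libraries themselves need a description. The depth, as reads assigned to genes, was 28845037 and 30020188 for cKO and 39199593 and 46673855 for control. Tet3 had 6400 and 5084 normalized counts in the cKO libraries, against 5056 and 6593 in the control libraries, a log2 fold change of -0.02 (SE 0.22). The count covers the whole gene, exons outside the floxed part included, so it checks neither genotype nor label. Xist, the RNA of the inactive X chromosome in females, had 87442 and 48951 normalized counts in the cKO libraries and 5.54 and 9.57 in the control libraries. Ddx3y, on the Y chromosome, had none in both cKO libraries, against 3158 and 3672. Sex and genotype therefore cannot be told apart in any value below. Control replicate 2 differed from the rest in its mitochondrial RNA, and in the sums of some cell type markers given below. Mitochondrial protein genes took 8.16% of its reads, against 1.26% and 0.989% in cKO replicates 1 and 2 and 1.09% in control replicate 1. The progenitor marker Kit had 14051 and 12478 normalized counts in the cKO libraries, against 10915 and 11537 in the control libraries. Cd34 had 13170 and 13116, against 11733 and 8599. Myb, the most abundant of 8 progenitor markers, overlapped between the groups, with 22861 and 21608, against 22018 and 20394. Gata2 (5022 and 4408, against 4150 and 7605) and Meis1 overlapped too.

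All 10 genes were lower in both cKO libraries than in either library labelled control. Over all 16598 genes tested, 19.5% showed that arrangement. Fold changes are on the scale of log2(normalized count + 1), with control subtracted from cKO. Their median over the 10 genes was -1.53, against 0.01 over all genes. It was below 0 in all 10, against 49.2% of all genes, and below -1 in 8 of the 10, against 4.3%. The shares over all genes are given as background, and nothing is read from them for genes chosen on this contrast. In a bulk sample, fewer cells that express a gene and less RNA of it per cell cannot be told apart. Levels below are normalized counts (reads over the library's size factor), given as mean ± SD with n = 2 mice per group. Nothing states whether the replicates were handled on separate days.

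FOS and FOSB proteins bring the DNA-binding partner that JUN proteins pair with most tightly. Fos had 423 and 761 normalized counts in the cKO libraries, against 2608 and 3253 in the control libraries (592 ± 239 against 2930.4 ± 456). It was 4.95-fold lower, with a log2 fold change of -2.36 (SE 0.30). Even the higher of the cKO libraries lay 3.43-fold below the lower control library.

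Fosb is a close relative of Fos that is often barely transcribed in resting cells. It had 14.0 and 16.1 normalized counts in the cKO libraries (12 and 14 reads), against 185 and 239 in the control libraries (200 and 300 reads). It was 14.1-fold lower, with a log2 fold change of -3.72 (SE 0.51). Its log2 fold change was the 19th lowest of all genes tested. The gap between the groups was 11.5-fold, the widest of the 10 genes, while within each group the libraries differed by 1.15-fold (cKO) and 1.30-fold (control).

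Jun, the JUN protein with the strongest activating domain, had 423 and 284 normalized counts in the cKO libraries, against 1066 and 1799 in the control libraries (353 ± 98.2 against 1433 ± 518). Its log2 fold change was -1.997 (SE 0.33). Junb, which can dampen the activity of JUN and is known to restrain the growth of myeloid cells in mice, had 913 and 1263, against 2207 and 2344. Its log2 fold change was -1.08 (SE 0.23). The groups of both genes lay clear of each other, Jun by 2.52-fold and Junb by 1.75-fold.

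Jund, the subunit that is usually present in cells at rest, had 619.9 and 566 normalized counts in the cKO libraries, against 689.7 and 1407 in the control libraries (593 ± 37.8 against 1048 ± 507). Its log2 fold change was -0.73 (SE 0.34), the smallest of the 10 genes. The lower control library was only 1.11-fold above the higher cKO library. Without control replicate 2, the log2 fold change of Jund was -0.22.

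The 5 other immediate early genes were lower in both cKO libraries as well. Egr1, a zinc finger transcription factor, had 53.7 and 55.1 normalized counts in the cKO libraries, against 205.0 and 391 in the control libraries. Its log2 fold change was -2.36 (SE 0.45), next to that of Fos. Nr4a1 (Nur77), an orphan nuclear receptor that is induced by antigen receptors in lymphocytes, had 219 and 303, against 757 and 939, with a log2 fold change of -1.70 (SE 0.29). The cKO libraries were low for both genes, and no library of either group reached into the other group's range.

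The other 3 genes act against the response that induces them, or have a role less well defined. Dusp1, a phosphatase that switches off p38, JNK and ERK, had 299 and 186 normalized counts in the cKO libraries, against 512 and 720.2 in the control libraries. Its log2 fold change was -1.36 (SE 0.34). Zfp36 (tristetraprolin), which sends AU-rich transcripts to decay, had 1459 and 1383, against 2958 and 3766, with a log2 fold change of -1.23 (SE 0.20). Ier2, a nuclear protein induced by growth factors, had 1547 and 2017, against 3148 and 3958, with a log2 fold change of -0.998 (SE 0.22). The cKO libraries lay close together for Zfp36 (SD 53.7) and farther apart for Ier2 (SD 333), and the groups of all 3 genes lay clear of each other.

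**Figure D1:**
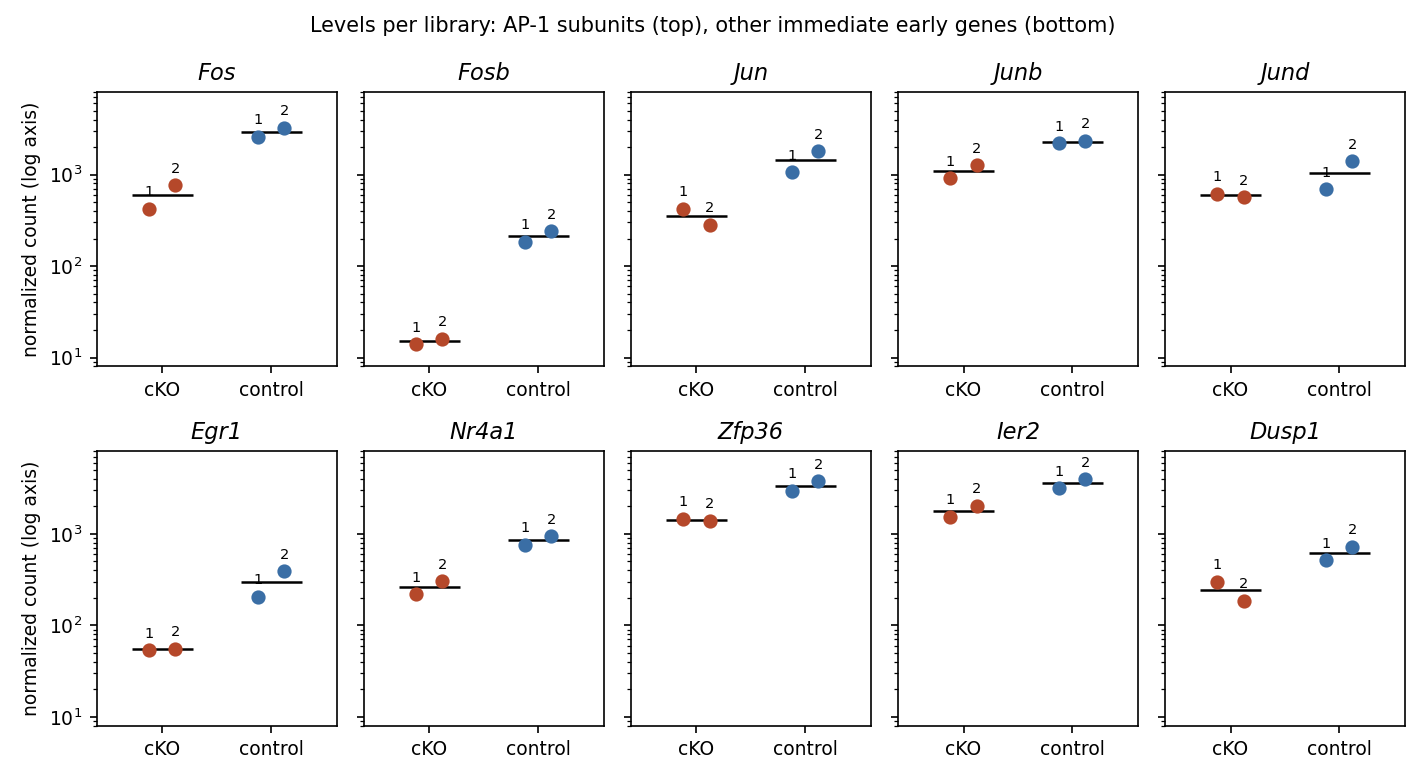
Normalized counts (log axis) of each gene in the 4 libraries, cKO at the left of each panel and control at the right, numbered by replicate, with a black line at the mean of 2 mice. In each of the 10 panels both cKO points lie below both control points, with the widest gap for Fosb and the narrowest for Jund.

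The AP-1 subunits spanned a wider range than the other immediate early genes. Their log2 fold changes ran from -3.72 (Fosb) to -0.73 (Jund), with a median of -1.997, and those of the other 5 genes from -2.36 (Egr1) to -0.998 (Ier2), with a median of -1.36. The difference between the medians, AP-1 minus other genes, was -0.64. With each library left out in turn it lay between -0.77 and -0.46. The ranges overlapped, since 2 AP-1 subunits (Junb and Jund) had smaller log2 fold changes than at least 4 of the other 5 genes.

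Ordered by log2 fold change, the genes ran Fosb, Fos, Egr1, Jun, Nr4a1, Dusp1, Zfp36, Junb, Ier2 and Jund. Fosb and Fos were the only neighbours in that order whose ratio set the groups apart in all 4 libraries. The log2 ratio of Fos to Fosb was 4.82 and 5.48 in the cKO libraries, against 3.81 and 3.76 in the control libraries. For the other 8 pairs of neighbours the ratios of the groups overlapped, so their order is not larger than the spread between libraries.

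Levels can be compared between genes only per length, here as normalized counts per kb of the longest coding transcript. In the cKO libraries, Ier2 was the most abundant of the 10 (1171 on average). Junb (601) and Zfp36 (509), which overlapped, came next, then Jund (356) and Fos (281), which also overlapped. Dusp1 (122), Jun (111) and Nr4a1 (102) were not separable from each other, and Egr1 (12.1) and Fosb (3.98) were the least abundant. In the control libraries, Ier2 was likewise at the top (2335). Fos (1390.1), Junb (1258) and Zfp36 (1205) followed with overlapping libraries, and then Jund (628), Jun (449), Nr4a1 (332) and Dusp1 (310), each overlapping its neighbour. Egr1 (66.4) and Fosb (56.0) were last there too and overlapped. By these means Fos was the highest AP-1 subunit in the controls and stood behind Junb and Jund in the cKO libraries, although in cKO replicate 2 Fos (361) was above Jund (340).

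The makeup of the transcripts of these 5 AP-1 subunits differed with their sum. Fosl2, another FOS protein, was left out of this sum. It had 1898 and 2075 normalized counts in the cKO libraries, against 2907 and 2072 in the control libraries. The 5 subunits together had 1213 and 1492 normalized counts per kb in the cKO libraries, against 3254 and 4310 in the control libraries. Fos and Fosb made up 16.8% and 24.5% of that sum in the cKO libraries, against 39.5% and 37.3% in the control libraries. Jund made up 30.6% and 22.8% in the cKO libraries, against 12.7% and 19.6% in the control libraries. Junb made up 41.6% and 46.8% in the cKO libraries, against 37.5% and 30.1% in the control libraries. For Jun the groups overlapped, with 10.9% and 5.97% in the cKO libraries and 10.3% and 13.1% in the control libraries. These are shares of transcripts and carry no information on protein or on dimers.

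**Figure D2:**
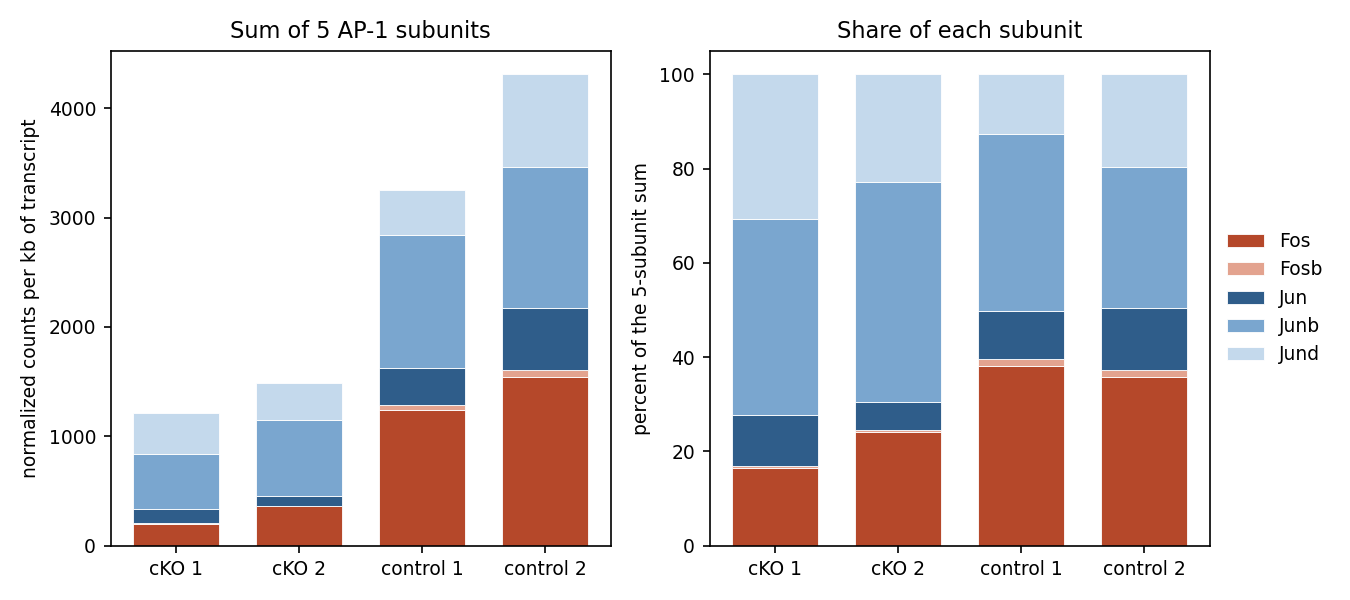
Normalized counts per kb of transcript summed over the 5 AP-1 subunits (left) and the percent of that sum taken by each subunit (right), one bar per library with cKO before control. The bars of cKO are 1213 and 1492 high and those of control 3254 and 4310, and the dark red share of Fos is smaller in both cKO bars.

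Replicates were compared within each group. In the cKO libraries, replicate 2 was above replicate 1 for 6 of the 10 genes, with ratios from 0.623 (Dusp1) to 1.80 (Fos). Fos was thus higher in replicate 2 while Jun (0.671) and Dusp1 were higher in replicate 1. In the control libraries, replicate 2 was above replicate 1 for all 10 genes, against 50.8% of all genes tested, with ratios from 1.06 (Junb) to 2.04 (Jund). That library is the one with the high mitochondrial share, and with the highest erythroid and the lowest neutrophil marker sum. The part of these differences in the levels was not tested. Without control replicate 2 the log2 fold changes were -2.20 for Fos, -3.54 for Fosb, -1.62 for Jun, -1.04 for Junb, -1.89 for Egr1 and -1.55 for Nr4a1. They were -1.06 for Zfp36, -0.83 for Ier2 and -1.12 for Dusp1, and all 10 stayed below 0, Jund included.

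**Figure D3:**
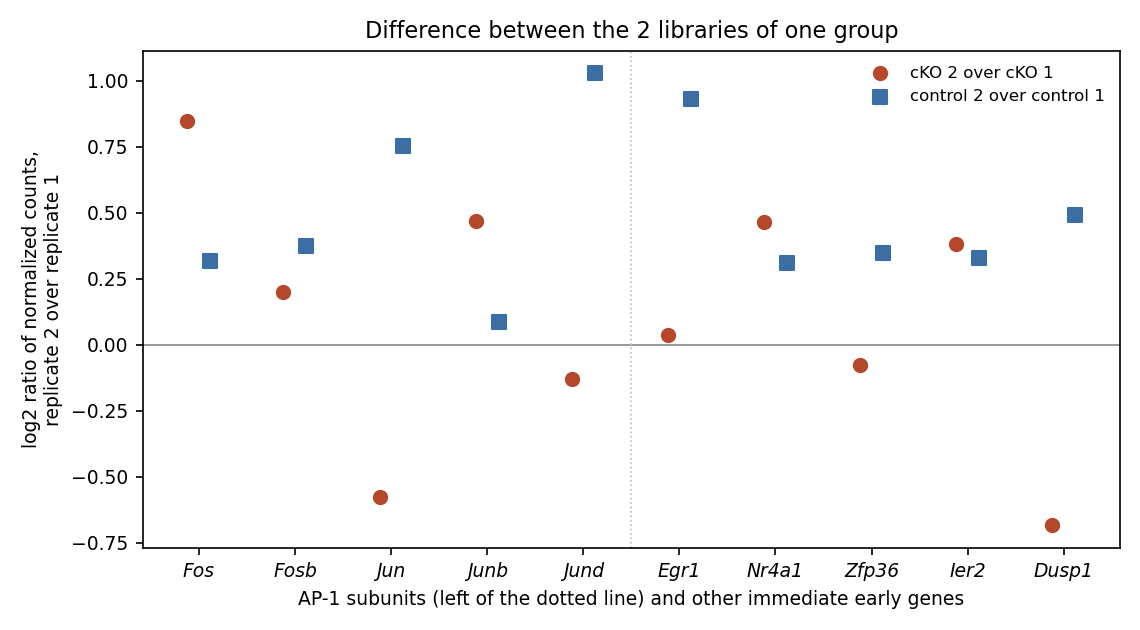
Log2 ratio of replicate 2 to replicate 1 for each gene, within cKO (red circles) and within control (blue squares), AP-1 subunits left of the dotted line. All 10 squares lie above 0, while 6 circles lie above it and 4 below.

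As a count, 0 of the 10 genes were called in a limma fit over all 16598 genes with Benjamini-Hochberg adjustment at 0.05, where 0.0422% of genes were called lower and 0.0301% higher. Of the 10, 9 had an unadjusted p under 0.05 in that fit, against 6.1% of all genes. On whole reads recovered from the table, edgeR called 0 of the 10 and DESeq2 called 8 lower, all but Jund and Dusp1, against 0.217% of all genes. The choice of the genes used this contrast, so nothing is read from these counts.

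Genes around the 10 were taken from 8 lists of the pathway, 137 genes tested in all, which were drawn up with earlier results of these data known. None of the 137 passed limma with Benjamini-Hochberg adjustment over all genes, and 11 had an unadjusted p under 0.05, 9 lower and 2 higher. edgeR called none of them and DESeq2 called 1, Mmp9. Both cKO libraries lay below both controls for 31.4% of the 137 and above them for 14.6%, against 19.5% and 19.2% of all genes. Their median log2 fold change was -0.09. The counts of genes below or above both controls in the lists that follow are to be read against these same 19.5% and 19.2%.

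Other leucine zipper relatives of AP-1 (13 tested) had a median log2 fold change of -0.27, with 5 lower and 2 higher in both cKO libraries, and 0 passed. Maff, a small MAF protein, had 53.7 and 80.4 normalized counts in the cKO libraries, against 109 and 128 in the control libraries. Maf ran the other way, with 257 and 175 against 86.8 and 156. Mafg, another small MAF protein, had 3873 and 4117, against 4745 and 5361. Fosl2, another FOS protein, was named after its values were seen and had 1898 and 2075 in the cKO libraries and 2907 and 2072 in the control libraries, with overlapping groups. Fosl1 and Mafa were not in the table.

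Further immediate early genes (32 tested) had a median log2 fold change of -0.26, with 11 lower and 4 higher in both cKO libraries, and 0 passed. The median of these 32 was thus much nearer to that of all genes than the -1.53 of the 10 genes described here, which were chosen on this difference. Klf4, a zinc finger factor of monocytes, had 2395 and 2453 normalized counts in the cKO libraries, against 4347 and 3241 in the control libraries (log2 fold change -0.63, SE 0.21). Klf2, its relative in lymphocytes and endothelium, had 365 and 499, against 637 and 843 (-0.78, SE 0.28). Ccn1, a secreted matrix protein, had 32.7 and 39.1, against 71.1 and 100.5 (-1.22, SE 0.53). Per1, a clock gene that is also induced early, ran the other way with 1720 and 1323, against 949 and 1030.5 (0.61, SE 0.22). The groups of these 4 genes did not overlap, but the 4 were named for the smallest p-values of their list, so nothing is read from that.

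The 30 genes from RAS to the MAP kinases, SRF, the ELK factors and CREB had a median log2 fold change of 0.08, with 5 lower and 5 higher in both cKO libraries, and 0 passed. Hras had 1040.1 and 1492 normalized counts in the cKO libraries, against 1612 and 2325 in the control libraries (-0.64, SE 0.27). Mapk3 (ERK1) had 3303 and 4277, against 4885 and 5062, and Map2k2, its activating kinase, had 3681 and 3893, against 4742 and 4720.2. Map2k6, which activates p38, had 502 and 579 in the cKO libraries, against 422 and 313 in the control libraries.

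Feedback inhibitors of the MAP kinases other than Dusp1 (14 tested) had a median of -0.25, with 7 lower and 0 higher in both cKO libraries, and 0 passed. Dusp6, a phosphatase specific to ERK, had 592 and 687 normalized counts in the cKO libraries, against 1135 and 814 in the control libraries (-0.59, SE 0.25). Spry1 had 159 and 142, against 186 and 307, and Spry2 had 434.3 and 434.3, against 578 and 502, both inhibitors of receptor signalling. Dusp8 had 60.7 and 2.30 in the cKO libraries, against 55.4 and 164 in the control libraries, so its groups overlapped. The 11 RNA-binding proteins of AU-rich elements other than Zfp36 had a median of 0.08, with 2 lower and 2 higher in both cKO libraries, and 0 passed. Among them, Rc3h1 (Roquin) had 3162 and 2703, against 2175 and 2428, and Tia1 had 5459 and 4733, against 3913 and 4678. Elavl1 (HuR), which stabilises such transcripts, had 4173 and 4271, against 4766 and 5566, and Hnrnpd (AUF1) had 13784 and 15171, against 17373 and 18075.

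Heat shock genes, which are also raised by handling, had a median of -0.10 over 11 tested, with 2 lower and 3 higher in both cKO libraries, and 0 passed. The inducible pair Hspa1a and Hspa1b, near-identical copies between which the counting could split reads, were the lowest. Hspa1b had 142 and 901 normalized counts in the cKO libraries, against 1111 and 1673 in the control libraries (-1.92, SE 0.74). Hspa1a had 47.9 and 326, against 395 and 546 (-1.88, SE 0.78). For both, cKO replicate 1 was below cKO replicate 2. So it was for 6 of the 10 genes, with ratios of replicate 2 to replicate 1 of 1.80 (Fos), 1.38 (Junb), 1.38 (Nr4a1), 1.30 (Ier2), 1.15 (Fosb) and 1.03 (Egr1). Replicate 1 was the higher for the rest, with ratios of 0.948 (Zfp36), 0.914 (Jund), 0.671 (Jun) and 0.623 (Dusp1). Hspd1 had 16274 and 19944, against 19910.2 and 23906, and Hspe1, its cochaperone, 5052 and 6065, against 5549 and 9806. The part of handling in the levels of the 10 genes was not tested.

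NF-kB inducible genes, which share stimuli with the 10, had a median of -0.05 over 15 tested, with 7 lower and 2 higher in both cKO libraries, and 0 passed. Nfkbiz, a nuclear regulator of NF-kB, had 288 and 354 normalized counts in the cKO libraries, against 488 and 812 in the control libraries (-0.98, SE 0.32). The chemokines Ccl3 and Ccl4 had 361 and 259.6, against 455 and 648, and 57.2 and 57.4, against 88.6 and 179. Tnf had 44.4 and 68.9, against 148 and 96.5. Genes known as targets of AP-1 had a median of -0.04 over 11 tested, with 4 lower and 2 higher in both cKO libraries, and 0 passed. Mmp9, a matrix protease, had 488 and 353, against 77.6 and 73.4 (2.44, SE 0.36), and Plaur, the urokinase receptor, had 569.7 and 872, against 1413 and 1054 (-0.79, SE 0.28). Hmox1, a heme-degrading enzyme, had 179 and 432, against 527 and 572, and Mt1, a metallothionein, had 1373 and 2109, against 1904 and 2722.

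**Figure D4:**
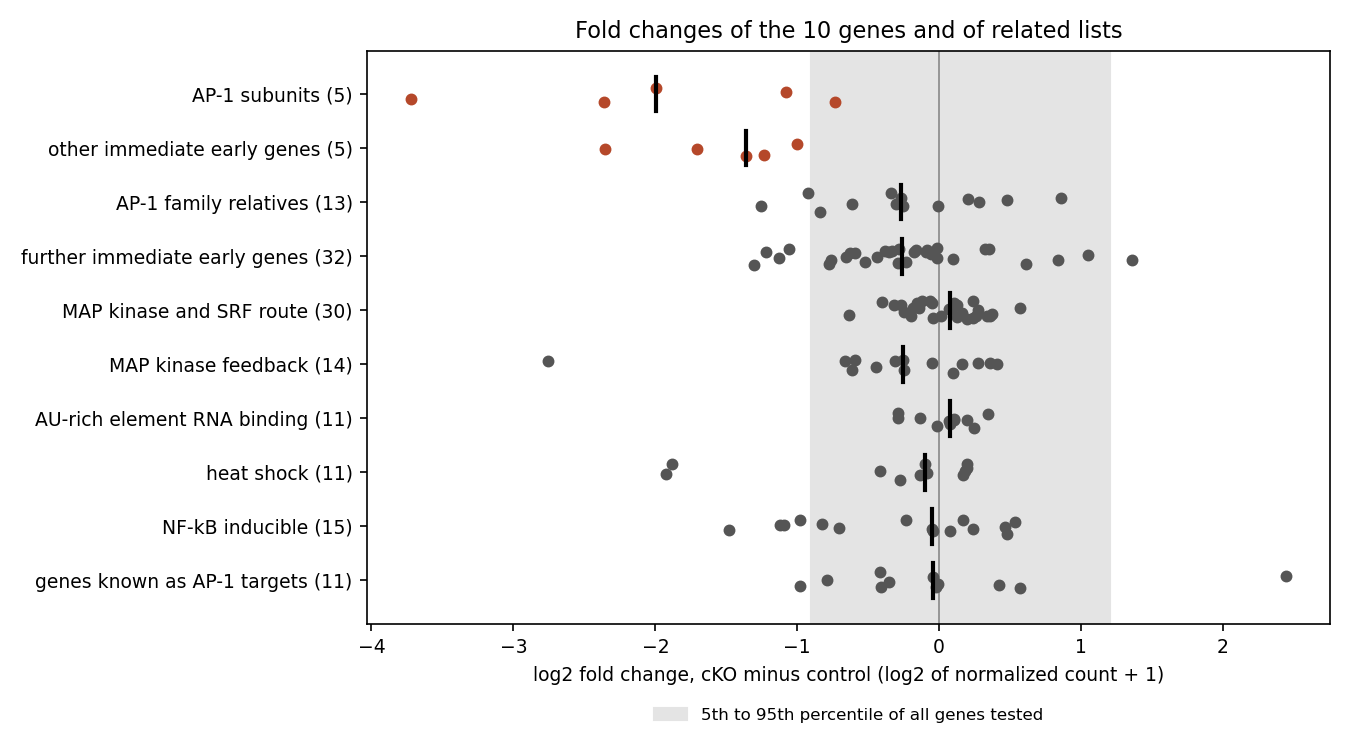
Log2 fold change (cKO minus control) of each gene, one dot per gene, for the AP-1 subunits and other immediate early genes (red) and 8 related lists (grey), with a black bar at each median and a shaded band from the 5th to the 95th percentile of all genes tested (-0.91 to 1.21). Of the 10 red dots, 9 lie left of the band, while the medians of the related lists lie between -0.27 and 0.08.

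Some markers of other cells that a Lin– preparation could hold differed between the groups as well, while others overlapped. Of 10 stromal and bone-lineage markers, 6 were lower in both cKO libraries and 2 were higher, against 19.5% and 19.2% of all genes. Their summed level was 14324 to 15724 normalized counts in the cKO libraries, against 25633 to 27068 in the control libraries. The gap between these sums lay in the collagen genes Col1a1 and Col1a2. Col1a1 had 1258 and 3299 in the cKO libraries, against 10275 and 8090 in the control libraries, and Col1a2 had 1042 and 2854, against 7068 and 6709. The 2 higher markers were Runx2 (7775 and 5471, against 4892 and 4174) and Lepr, and the groups of Cxcl12 and Pdgfrb overlapped. Of 12 markers of T, NK and innate lymphoid cells, 11 were higher in both cKO libraries, against 19.2% of all genes, with a median log2 fold change of 1.63 over the 12. Their sums were 12385 to 13383 normalized counts in the cKO libraries, against 7905 to 10634 in the control libraries. Nkg7, the exception, made up much of these sums, with 4975 and 6616 in the cKO libraries, against 8474 and 4671 in the control libraries. The sums of 10 erythroid markers were 13218 to 39303 in the cKO libraries and 30577 to 85335 in the control libraries, which overlap. The highest of these was that of control replicate 2. The sums of 8 neutrophil markers were 298440 to 347064 in the cKO libraries and 108966 to 456666 in the control libraries, also overlapping. They were mostly Mpo and Elane, which early myeloid progenitors express too. Control replicate 2 had the lowest of these sums. It was also the lowest for 10 monocyte and macrophage markers (23204, against 63900 in control replicate 1 and 40670 and 51790 in cKO). So it was for 6 eosinophil, basophil and mast cell markers (6433, against 27085 in control replicate 1 and 20194 and 24447.5 in cKO). Of 8 B cell and plasma cell markers, 3 were higher in both cKO libraries, and 5 of 8 progenitor markers were. The progenitor sums were 62865 to 67512 in the cKO libraries, against 57465 to 57748 in the control libraries. Of 6 dendritic markers, 4 were higher in both cKO libraries and 1 was lower, and of 6 endothelial markers, 3 were higher and 0 lower. Lower in both cKO libraries were 2 of the 10 monocyte and macrophage markers and 1 of 5 megakaryocyte markers. Of the 6 eosinophil, basophil and mast cell markers, 1 was higher. No marker of these lists was at 0 in any library, and Ly6g and Ms4a1 were not in the table. The part of these cells in the levels of the 10 genes was not tested.

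Patterns over the 4 libraries were compared with the mean pattern of the 10 for 12872 other genes with a mean of at least 50 normalized counts. The measure was the root mean square difference of centred log2 levels. The nearest were Col5a2 (0.13), Xlr4b (0.14), AC174780.1 (0.20), Nr6a1 (0.21) and Mybpc3 (0.21). Col5a2, a chain of fibrillar collagen, had 53.7 and 68.9 normalized counts in the cKO libraries, against 205.0 and 249 in the control libraries. Xlr4b, an X-linked gene, had 102 and 114, against 250.2 and 451. Of the 10 genes themselves, Nr4a1 lay nearest to their mean pattern (0.15) and Fosb farthest from it (0.98). No immediate early gene of the related list was among the 5 nearest, and with 4 libraries the measure is a description.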

How the data were processed

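RNA-seq of Lin– bone marrow cells gave 4 libraries, 1 per mouse and 2 per genotype. The table the authors deposited holds 1 signal value per gene and library, normalized counts from DESeq2, per the submitters' processing notes and the name of the table. The submitters' processing notes name mm39, DESeq2, featureCounts, SAMtools, STAR 2.7.9a and Trim Galore 0.6.7. The sources used here give no settings, strand or annotation. Columns headed as wild type were taken as the control samples of the same number. All values were whole multiples of 1 read (100% within 0.1 read), so whole reads were recovered. No gene in the table had fewer than 41 reads in all.

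Genes with a mean of at least 10 were tested with limma 3.58.1 under R 4.3.3, two-sided, after a log2 transform with a pseudocount of 1 and with trended empirical Bayes moderation and Benjamini-Hochberg adjustment over all genes at 0.05. Alternatives included edgeR 4.0.16 and DESeq2 1.42.0 on recovered reads. The steps were tested on simulated data. The 10 genes, the lists and the tests were chosen with earlier results of these data known. From each related list the 4 smallest p-values are named, unless stated otherwise. One gene that this rule names is not reported here. P-values measure the spread between these 4 mice alone. Sequences come from RefSeq (GRCm38.p6) and GENCODE M21, other builds than that of the reads; RefSeq entries matched 8 of 10 symbols.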

Additional observations from a re-analysis of the deposited data

How the results depend on the processing

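No log2 fold change of the 10 genes, which were chosen for being below 0, changed sign under the 16 alternatives, of which 6 cannot move it; that of Fosb was -3.14 with a pseudocount of 10. With a library left out, the median of the 10 genes ran from -1.73 to -1.33, the difference between AP-1 subunits and other genes from -0.77 to -0.46, and the calls over all genes from 4 to 232 higher and from 5 to 161 lower, the highest without control replicate 1, where 8 of the 10 genes and 2 related genes (Mmp9 higher, Ppp1r15a lower) were called. Without cKO replicate 2, 1 related gene was called (Hspa1b). Higher genes numbered 2 with a mean of at least 50, with quantile normalization and without a trend, and 1 higher and 1 lower were called without X and Y genes. DESeq2 called 71 higher, 36 lower and 1 related gene. With the replicate number as a block, 3 higher and 5 lower were called and none of the 10. With robust empirical Bayes, without cKO replicate 1 and without cKO replicate 2, 1 of the 10 was called lower in each case, and with DESeq2 8 were. Deviations of same-numbered libraries correlated at -0.07 over genes, which cannot show whether they shared handling or a day. Fosb, with 12 and 14 reads in the cKO libraries, is the gene that depth limits most.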
